A study of Mus musculus with 6 samples.

Results

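The genes described here are 10 genes of prostaglandin synthesis, transport and reception, taken by symbol from a table of 31017 genes: Pla2g4a, Ptgs1, Ptgs2, Ptges, Ptges2, Ptges3, Slco2a1, Abcc4, Hpgd and Ptger4. Each of the 10 has a row in the table. The data are poly(A) RNA-seq counts of 4T1, a mouse mammary carcinoma cell line, grown in 3D gels of collagen I. Of the 6 libraries, 3 are ETV4 KO (Cas9 and guide RNAs against Etv4, which encodes an ETS transcription factor) and 3 are control (Cas9 and control guide RNAs). Cells of both groups were nucleofected and cultured in the same way, and which of the collagen concentrations in the protocol these gels had is not stated. The 3 ETV4 KO libraries carry 1 code, c39, which no source used here explains, so whether they come from 1 clone is not known. Nor is it stated that a group's 3 libraries were separate cultures, so the p-values measure only the spread between these libraries, which may be technical.

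Prostaglandins are lipid signals made on demand from arachidonic acid. Cytosolic phospholipase A2 frees arachidonate from membranes, a cyclooxygenase turns it into prostaglandin H2, and a terminal synthase turns that into prostaglandin E2. Prostaglandin E2 leaves the cell through an ABC exporter, acts on EP receptors that signal mostly through cyclic AMP, and is cleared by uptake through a solute carrier and oxidation by a dehydrogenase. In mammary tumours the inducible cyclooxygenase, encoded by Ptgs2, is a well-known source of prostaglandin E2.

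The libraries held 29042569, 25296874 and 24356286 counts in ETV4 KO and 22742579, 26669985 and 22355015 counts in control. Etv4, on chromosome 11, averaged 89.8 ± 2.44 CPM in ETV4 KO and 133.9 ± 0.752 CPM in control (SD, n = 3 each), and fell by 0.58 on the log2 scale (SE 0.036, edgeR adjusted p = 1.03e-14). CPM are counts scaled to library size, here after TMM correction for library composition. With the median change of its 10 Mb stretch of chromosome taken out, Etv4 had -0.11. Of the related factors, Etv5 had a log2 fold change of -0.65 and Etv1 of -0.10, both called. The groups differed widely: 71.1% of the 12076 tested genes passed the threshold, an edgeR adjusted p under 0.05, and 9.89% passed it with at least a 2-fold change. Markers of other cell types were low in both groups. Of 8 macrophage markers, Adgre1 and Lyz2 had 0 counts in all 6 libraries, Mrc1 and Cd14 were called higher (log2 fold changes 1.67 and 0.28), Cd68 was not called, and Csf1r had 4, 1 and 0 counts in ETV4 KO libraries against 7, 21 and 11 in control libraries. Of 8 fibroblast markers, Lum and Thy1 had 0 counts throughout and Pdgfra, the only one tested, was called higher (0.32). The macrophage markers summed to 18.8 to 20.3 CPM of the raw library size in ETV4 KO and to 17.5 to 18.9 CPM in control, and the fibroblast markers to 12.8 to 14.4 CPM in ETV4 KO and 10.3 to 12.1 CPM in control. The 8 epithelial markers summed to 4131 to 4299 CPM in ETV4 KO and 5689 to 5831 CPM in control, and of the 7 tested, 5 fell (Epcam by 1.37) and 1 rose (Krt19, 0.13); the keratin Krt5 had at most 1 count in any library. The 6 endothelial markers summed to under 1 CPM in every library, and 5 of 6 lymphocyte markers had 0 counts throughout. The part of these shifts in the results below was not tested.

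In ETV4 KO, both cyclooxygenase genes and the prostaglandin exporter gene Abcc4 were more than 2-fold higher, and the gene of the importer Slco2a1 was lower. The gene of the releasing phospholipase, Pla2g4a, and 2 of the 3 prostaglandin E synthase genes did not pass the test. Of the 10 genes, 8 passed the filter on low counts; 4 of these rose, 1 fell and 3 were not called, against a background of 71.1% called among all tested genes, 35.0% higher and 36.0% lower. The share called is thus near the background. By size, 3 of the 8 rose by at least 2-fold and none fell by that much. Of the 12076 tested genes, 467 were called higher and 727 lower with at least that change, 9.89% in either direction. The median log2 fold change of the 8 was 0.25, and that of all tested genes was -0.00. The 10 genes were chosen with earlier results of these data known, so these comparisons describe the genes and are not a test. The genes that did not pass the filter were Hpgd, with 0 counts throughout, and Ptger4, with few.

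**Figure D1:**
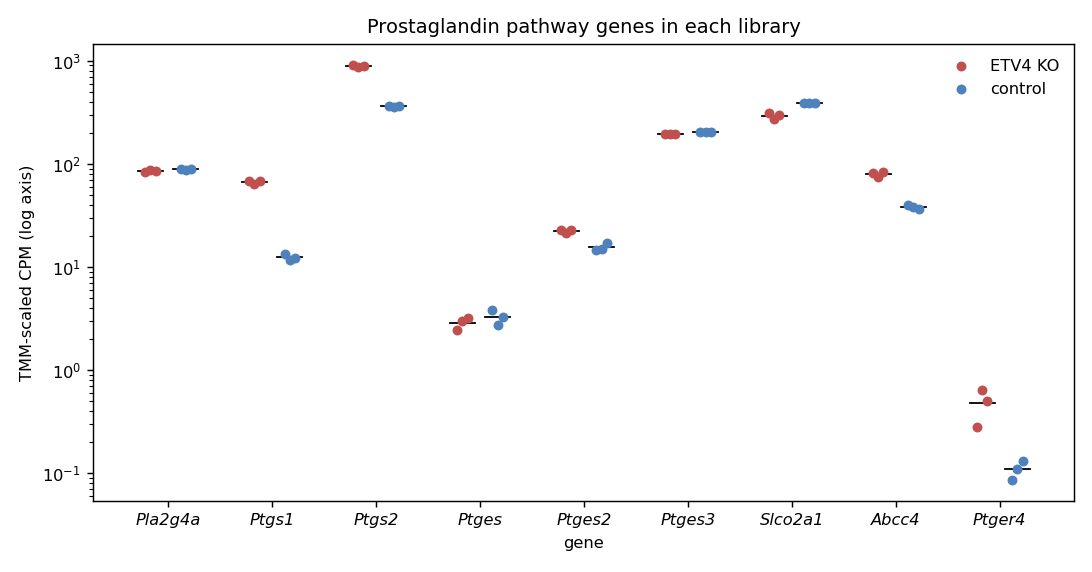
TMM-scaled CPM on a log axis of 9 prostaglandin pathway genes in each library, with ETV4 KO in red, control in blue and the group mean as a line; Hpgd, with 0 counts in every library, is left out. Ptgs1, Ptgs2 and Abcc4 lie clearly higher in the 3 ETV4 KO libraries, whereas the values of Pla2g4a and Ptges overlap between the groups.

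Ptgs2 encodes the inducible cyclooxygenase, COX-2, and lies on chromosome 1 (150100031 to 150108227, plus strand, mm10). It had 913, 877 and 895 CPM in the ETV4 KO libraries, against 365, 355 and 360 CPM in the control libraries. Each ETV4 KO value was above each control value, and the spread within a group was small. The log2 fold change was 1.31 (SE 0.031, edgeR adjusted p = 4.13e-25), a fold of 2.48. Only 6.55% of tested genes had a larger absolute change.

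Ptgs1 encodes the constitutive cyclooxygenase, COX-1, and lies on chromosome 2 (36230426 to 36252272, plus strand). It had 68.3, 64.1 and 68.6 CPM in ETV4 KO libraries, against 13.3, 11.7 and 12.2 CPM in control libraries. The groups did not overlap, as was the case for 72.7% of tested genes. It rose by 2.44 on the log2 scale (SE 0.058, edgeR adjusted p = 4.13e-25). This fold of 5.42 was the largest among the tested genes of the 10; 2.30% of all tested genes had a larger absolute change.

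Ptgs1 therefore rose by a larger factor than Ptgs2, and its share of cyclooxygenase transcripts differed between the groups. Per kb of exon, Ptgs1 made up 8.11%, 7.94% and 8.30% of the summed level of both genes in ETV4 KO libraries and 4.11%, 3.75% and 3.84% in control libraries. The mean share was 8.12% ± 0.178 in ETV4 KO and 3.90% ± 0.189 in control (SD, n = 3 each). Ptgs2 was thus the far more abundant cyclooxygenase transcript in both groups. With the longest coding transcript as the length in place of all exons, the share was 10.4% in ETV4 KO and 5.08% in control.

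**Figure D2:**
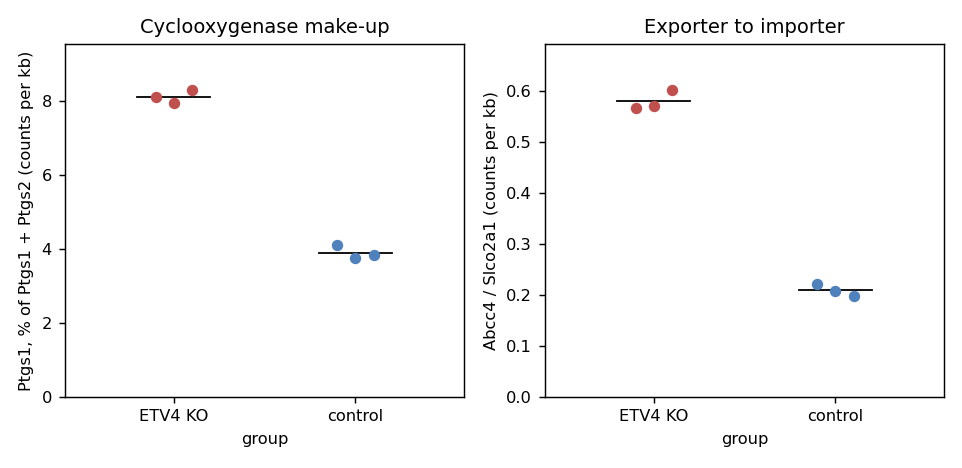
Left, Ptgs1 as a percentage of Ptgs1 plus Ptgs2, both in counts per kb of exon; right, the ratio of Abcc4 to Slco2a1 in counts per kb. Points are libraries and lines group means (n = 3 each, ETV4 KO in red, control in blue); in both panels each ETV4 KO library lies above each control library.

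Pla2g4a encodes cytosolic phospholipase A2 alpha, the enzyme that frees arachidonate. Its start lies 138.7 kb from that of Ptgs2 on chromosome 1 (149829618 to 149961290, minus strand), and the genes are transcribed away from each other. In ETV4 KO libraries it had 84.1, 87.5 and 85.4 CPM, against 89.5, 86.5 and 89.4 CPM in control libraries. The groups overlapped. The log2 fold change was -0.05 (SE 0.038, edgeR adjusted p = 0.277), with a 95% interval of -0.12 to 0.03. It was called lower with upper-quartile factors (log2 fold change -0.08, edgeR adjusted p = 0.0498) and with library size alone (-0.10, edgeR adjusted p = 0.0239).

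The neighbourhoods of the cyclooxygenase genes differed. Within 1 Mb of the annotated Ptgs2 start, 3 other genes were tested. Besides Pla2g4a they were the nuclear pore gene Tpr, with a log2 fold change of -0.13, and the lubricin gene Prg4, with -0.24; Prg4 was not called. Within 1 Mb of Ptgs1, 9 genes were tested, with log2 fold changes of -0.02 to 1.18 and a median of 0.51; the highest was Ttll11. Ptgs1, at 2.44, lay above each of them. With the median of the 10 Mb bin taken out, the log2 fold change was 2.27 for Ptgs1 and 1.27 for Ptgs2.

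The bases just before the annotated starts of 4 of these genes are shown because 3 rose together and the fourth, Pla2g4a, neighbours Ptgs2 and was not called. The sequences are RefSeq's for GRCm38.p6, the build also called mm10, and each runs 5′ to 3′ on the gene's own strand over the 250 bases before the start. Capitals mark matches on either strand to any of 8 motifs: AGGAAG and CCGGAA for ETS factors (AGGAAG is the PEA3 element after which the Etv4 subfamily is named), TGACGT for CREB, TGANTCA for AP-1, CACGTG for E-box factors, a 10-base NF-kB motif (GGG, any 2 bases, TT, any base, CC), GGGCGG for SP1 and TATAAA for the TATA box. The windows are chr1:150099781-150100030 (plus) for Ptgs2, chr2:36230176-36230425 (plus) for Ptgs1, chr14:118706220-118706469 (minus) for Abcc4 and chr1:149961291-149961540 (minus) for Pla2g4a.
Ptgs2: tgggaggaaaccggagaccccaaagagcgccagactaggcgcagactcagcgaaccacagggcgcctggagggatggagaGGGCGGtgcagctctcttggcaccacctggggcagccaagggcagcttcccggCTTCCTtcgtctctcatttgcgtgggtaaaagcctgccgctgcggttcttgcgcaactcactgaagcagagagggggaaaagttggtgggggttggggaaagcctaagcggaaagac
Ptgs1: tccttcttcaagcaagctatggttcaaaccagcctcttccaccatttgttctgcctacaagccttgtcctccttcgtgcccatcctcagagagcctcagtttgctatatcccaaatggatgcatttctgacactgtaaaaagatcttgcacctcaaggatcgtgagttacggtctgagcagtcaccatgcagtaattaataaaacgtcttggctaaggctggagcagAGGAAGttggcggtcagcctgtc
Abcc4: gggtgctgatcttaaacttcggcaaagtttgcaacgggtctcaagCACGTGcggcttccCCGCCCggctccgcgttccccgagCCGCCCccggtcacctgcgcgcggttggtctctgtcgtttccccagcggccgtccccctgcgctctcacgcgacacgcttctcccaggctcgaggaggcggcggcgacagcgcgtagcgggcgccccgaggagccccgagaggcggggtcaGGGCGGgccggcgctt
Pla2g4a: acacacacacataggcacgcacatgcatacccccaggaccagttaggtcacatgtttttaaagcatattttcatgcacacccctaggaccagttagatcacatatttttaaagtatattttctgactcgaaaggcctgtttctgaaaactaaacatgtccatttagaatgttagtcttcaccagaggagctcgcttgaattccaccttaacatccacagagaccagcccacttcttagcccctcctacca
AGGAAG occurred once before Ptgs2, at -117 from the annotated start on the opposite strand, and once before Ptgs1, at -23. It occurred in neither the Abcc4 nor the Pla2g4a window. Over the 10 genes it was found before 4 (Ptgs1, Ptgs2, Slco2a1 and Hpgd), and over 27018 genes with a window before 29.2%. Each gene has 1 window, that of its RefSeq start farthest upstream. For Slco2a1 (start 103008487) and Ptges (start 30903297) this start lies well inside the gene as GENCODE M21 places it. Slco2a1, which fell, and Hpgd, with 0 counts, are among the 4. CCGGAA was found before 12.2% of genes and before none of the 10; Abcc4 has a match just after its start, at position 6, outside the window shown. GGGCGG was found before 7 of the 10 genes (all but Pla2g4a, Ptgs1 and Ptges2) and before 33% of all genes, and CACGTG, before Abcc4 and Ptges2, before 6.04%. The Pla2g4a window held none of the 8 motifs, and no window of the 10 held TGACGT (6.53% of genes), TGANTCA (6.85%) or the NF-kB motif (4.02%); TATAAA (13% of genes) stood before Slco2a1. In Ptgs2 a TGACGT match and an overlapping CACGTG match lie just after the annotated start, at positions 9 to 26 in the stretch cactACGTCACGTGgagt (chr1:150100039-150100056). These are matches of letters, and binding was not measured.

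Of the 3 prostaglandin E synthase genes, which act after the cyclooxygenases, Ptges2 was called higher, and Ptges and Ptges3 were not called. Ptges encodes the inducible microsomal synthase that is coupled to COX-2 in many cells. It was low, with 70, 75 and 77 counts in ETV4 KO libraries (2.44, 3.03 and 3.22 CPM) and 89, 74 and 74 counts in control libraries (3.84, 2.73 and 3.26 CPM). The groups overlapped, and the log2 fold change was -0.18 (SE 0.16, edgeR adjusted p = 0.333) with a 95% interval of -0.51 to 0.15. This interval does not reach the rise of either cyclooxygenase gene.

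Ptges2, which encodes a second membrane-associated synthase, had 652, 532 and 550 counts in ETV4 KO libraries, against 338, 401 and 388 counts in control libraries, or 22.4 ± 0.818 CPM in ETV4 KO and 15.5 ± 1.38 CPM in control (SD, n = 3 each). The groups did not overlap in CPM, and it rose by 0.54 on the log2 scale (SE 0.068, edgeR adjusted p = 4.39e-08). Like Ptgs1 it lies on chromosome 2 (32395896 to 32405772), where the other expressed genes of its 10 Mb bin had a median of 0.17; with that taken out it had 0.37.

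Ptges3 encodes p23, the cytosolic synthase that is also a co-chaperone of HSP90. It had 197, 195 and 193 CPM in ETV4 KO libraries, against 204, 205 and 205 CPM in control libraries. Each ETV4 KO value was below each control value, by a small margin. It had a log2 fold change of -0.07 and was not called (SE 0.032, edgeR adjusted p = 0.0578); the sign turned (0.06) with the median of its 10 Mb bin on chromosome 10 taken out, and it was called lower under 5 of 18 alternatives, among them upper-quartile factors (-0.11), library size alone (-0.12), a filter on CPM and leaving out ETV4 KO replicate 1. Reads of Ptges3 and its processed pseudogene Ptges3-ps may be hard to tell apart, so its level is uncertain.

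**Figure D3:**
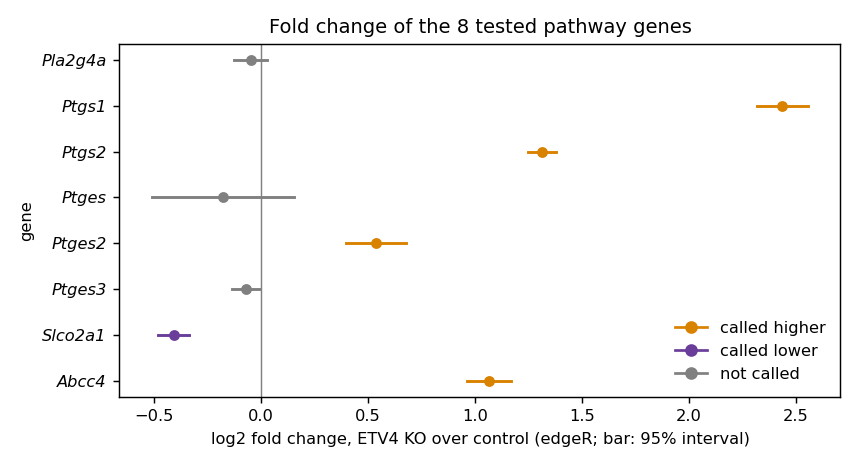
Log2 fold change of the 8 tested genes, ETV4 KO over control, from edgeR, with bars for the 95% interval; orange marks genes called higher, purple lower and grey not called. Ptgs1 (2.44), Ptgs2 (1.31), Abcc4 (1.07) and Ptges2 (0.54) lie right of 0 and Slco2a1 (-0.41) left of it.

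The transport genes moved in opposite directions. Abcc4 encodes MRP4, an ABC transporter that exports prostaglandin E2 among other organic anions, and lies on chromosome 14 (118482692 to 118706219, minus strand). It had 82.4, 74.1 and 84.2 CPM in ETV4 KO libraries, against 40.4, 38.0 and 36.6 CPM in control libraries. The groups did not overlap, and the log2 fold change was 1.07 (SE 0.050, edgeR adjusted p = 1.07e-17). The 8 tested genes within 1 Mb of it ran from -2.95 to 0.39 with a median of -0.28, all below Abcc4. The lowest values were those of Gm4675 and Dzip1, which had few reads (log2 CPM -1.42 and -0.46).

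Slco2a1 encodes the prostaglandin transporter that carries prostaglandins into cells, and lies on chromosome 9 (102988712 to 103096002, plus strand). It had 308, 275 and 296 CPM in ETV4 KO libraries, against 387, 388 and 392 CPM in control libraries. The groups did not overlap, and the gene fell by 0.41 on the log2 scale (SE 0.035, edgeR adjusted p = 1.94e-11). Per kb of exon, the ratio of Abcc4 to Slco2a1 was 0.566, 0.571 and 0.603 in ETV4 KO libraries and 0.221, 0.208 and 0.198 in control libraries. With the longest coding transcripts as lengths the ratios were 0.333, 0.336 and 0.354 in ETV4 KO libraries and 0.130, 0.122 and 0.117 in control libraries. The exporter transcript was below the importer transcript in every library of both groups.

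Hpgd encodes 15-hydroxyprostaglandin dehydrogenase, the enzyme that begins prostaglandin inactivation. It had 0 counts in each of the 6 libraries, which allows up to 0.0388 CPM over the ETV4 KO libraries and 0.0411 CPM over the control libraries (3 counts over the group; counting error only).

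Ptger4 encodes EP4, a receptor for prostaglandin E2 that raises cyclic AMP. It had 8, 16 and 12 counts in ETV4 KO libraries (0.279, 0.646 and 0.502 CPM), against 2, 3 and 3 counts in control libraries (0.0862, 0.111 and 0.132 CPM). The groups did not overlap, and the ratio of the summed counts per effective library size, 36 in ETV4 KO against 8 in control, was 4.25, with a 95% Clopper-Pearson interval of 1.94 to 10.6 that covers counting error only. In a fit without the low-count filter, added after the data were seen, it rose by 2.06 (SE 0.59, edgeR adjusted p = 0.00133), where 47.6% of 18669 genes were called. An exon of Ttc33 on the opposite strand overlaps 82 of the 6648 exon bases of Ptger4, and Gm15937, also on the opposite strand and not analysed here, overlaps 1015. Ttc33 had 17.8 CPM in ETV4 KO and 19.0 CPM in control. Since the strand setting of the counting is not stated, the few Ptger4 counts are uncertain.

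Levels can be set side by side per kb of exon. In ETV4 KO the order was Ptgs2 (195 CPM per kb), Ptges3 (87.9), Slco2a1 (21.7), Ptgs1 (17.3), Pla2g4a (13.4), Abcc4 (12.6), Ptges2 (4.43), Ptges (0.737) and Ptger4 (0.0716). In control it was Ptges3 (92.2 CPM per kb), Ptgs2 (78.6), Slco2a1 (28.7), Pla2g4a (13.8), Abcc4 (5.74 to 6.31 over the libraries), Ptgs1 (3.19), Ptges2 (3.06), Ptges (0.833) and Ptger4 (0.0165). By this measure Ptgs2 was above Ptges3 in ETV4 KO and below it in control. The Ptges3 level is uncertain because of its pseudogene, and the order was not computed with another length. Neighbours whose libraries overlapped were Pla2g4a and Abcc4 in ETV4 KO, and Ptgs1 and Ptges2 in control. In bulk RNA, fewer cells that express a gene and less of its RNA per cell cannot be told apart.

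Beyond the 10 genes, 10 lists of related genes held 132 genes in the table, of which 89 were tested. Of these, 41 rose, 32 fell and 16 were not called, so 73 of the 89 were called. Among all tested genes 71.1% were called, 35.0% higher and 36.0% lower. These shares are the background for the count of each list below. The lists were chosen with earlier results of these data known, and no list was tested as a set. The median log2 fold change of the 89 was 0.09, against -0.00 for all tested genes. The genes named from these lists are those called with a log2 change of at least 0.5 and a mean of at least 1 CPM in one group, at most 4 per list. For each of the 22 genes so named the groups did not overlap, but picking them by call and size of change favours this. Among all tested genes, picked or not, the share without overlap was 72.7%.

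Among other prostanoid synthases, 3 of 9 genes in the table were tested; 2 fell and 1 was not called. Cbr1, a carbonyl reductase that can turn prostaglandin E2 into prostaglandin F2 alpha, averaged 2.91 ± 0.460 CPM in ETV4 KO and 11.9 ± 0.838 CPM in control (SD, n = 3 each), and fell by 2.03 on the log2 scale (SE 0.12, edgeR adjusted p = 1.14e-15). The related reductase gene Cbr2 fell by 1.37, and by 0.85 with the median of its bin on chromosome 11 taken out. Akr1b3, an aldose reductase with prostaglandin F synthase activity, was the gene not called, with 71.7 CPM in ETV4 KO and 67.6 CPM in control. The remaining synthase genes were at or near 0 counts: Ptgds, Hpgds, Ptgis and Tbxas1 had at most 5 counts in any library, and Fam213b and Akr1c18 had 0.

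Most receptor genes other than Ptger4 were at or near 0 counts. Ptger2, Ptger3, Ptgdr and Ptgfr had 0 counts in all 6 libraries, and Ptgir and Tbxa2r had at most 3 in any. Ptger1, which encodes EP1, had 80, 55 and 60 counts in ETV4 KO libraries and 49, 69 and 53 in control libraries, and the groups overlapped (log2 fold change 0.11, SE 0.17, edgeR adjusted p = 0.585). Ptgdr2, a receptor for prostaglandin D2, had 8 to 15 counts in ETV4 KO libraries and 12 to 18 in control libraries and was not called. Of 3 tested members of this list 1 rose: Ptgfrn, a membrane protein named as a negative regulator of the prostaglandin F receptor, with 0.09. Genes of later inactivation steps were expressed: of 3 tested, the prostaglandin reductases Ptgr1 and Ptgr2 fell by 0.30 and 0.21, and Zadh2, another 15-oxoprostaglandin reductase, rose by 0.65.

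Genes of the list of other phospholipases A2, and those of arachidonate supply and re-esterification, went both ways. Of 10 tested genes in the list of other phospholipases A2, 4 rose and 4 fell, with a median of 0.03. Among all tested genes 35.0% rose and 36.0% fell, for this list and the next. The list includes Pafah1b1, a non-catalytic subunit that was among those that fell, and Plaa, a phospholipase A2 activating protein that was not called. The cytosolic phospholipase paralogue Pla2g4e averaged 3.17 ± 0.248 CPM in ETV4 KO and 0.466 ± 0.127 CPM in control (SD, n = 3 each), a rise of 2.75 (SE 0.24, edgeR adjusted p = 1.45e-11). Pla2g4c rose by 1.48 and Pla2g7, the platelet-activating factor hydrolase, by 1.56, each at under 10 CPM, while the adipose-type phospholipase Pla2g16 fell by 1.83. Of 14 tested genes of arachidonate supply and re-esterification, 6 rose and 7 fell, with a median of -0.01. Acsl4, the acyl-CoA synthetase that prefers arachidonate, averaged 159 ± 3.07 CPM in ETV4 KO and 364 ± 11.4 CPM in control (SD, n = 3 each), and fell by 1.19 on the log2 scale (SE 0.034, edgeR adjusted p = 3.64e-23). Mgll, which releases arachidonate from 2-arachidonoylglycerol, rose by 2.55 to 2.98 CPM in ETV4 KO, against 0.507 CPM in control.

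Genes of the lipoxygenase arm, which makes leukotrienes from the same substrate, were mostly too low to be tested. Of 18 genes in the list of lipoxygenase and leukotriene genes, which is wider than leukotriene synthesis, 7 were tested, with 2 higher and 1 lower. Among all tested genes 35.0% were higher and 36.0% lower. The gene called lower was Lta4h, which fell by 0.38, to 50.5 CPM in ETV4 KO against 65.9 CPM in control. Alox5, Cysltr1, Cysltr2, Ltb4r1, Ltb4r2 and Ephx2 had 0 counts throughout. Aloxe3, an epidermal lipoxygenase, rose by 1.37, to 16.1 CPM in ETV4 KO against 6.24 CPM in control, and the microsomal glutathione transferase Mgst3 rose by 0.56. Among other eicosanoid transporters 2 of 6 tested rose and 3 fell. Abcc1, the leukotriene C4 exporter, rose by 0.60 to 250 CPM in ETV4 KO against 165 CPM in control, and Slco4a1 rose by 0.61. Abcc5 fell by 0.54 and Abcg2 by 2.00; Abcg2 had at most 9 counts in any ETV4 KO library.

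**Figure D4:**
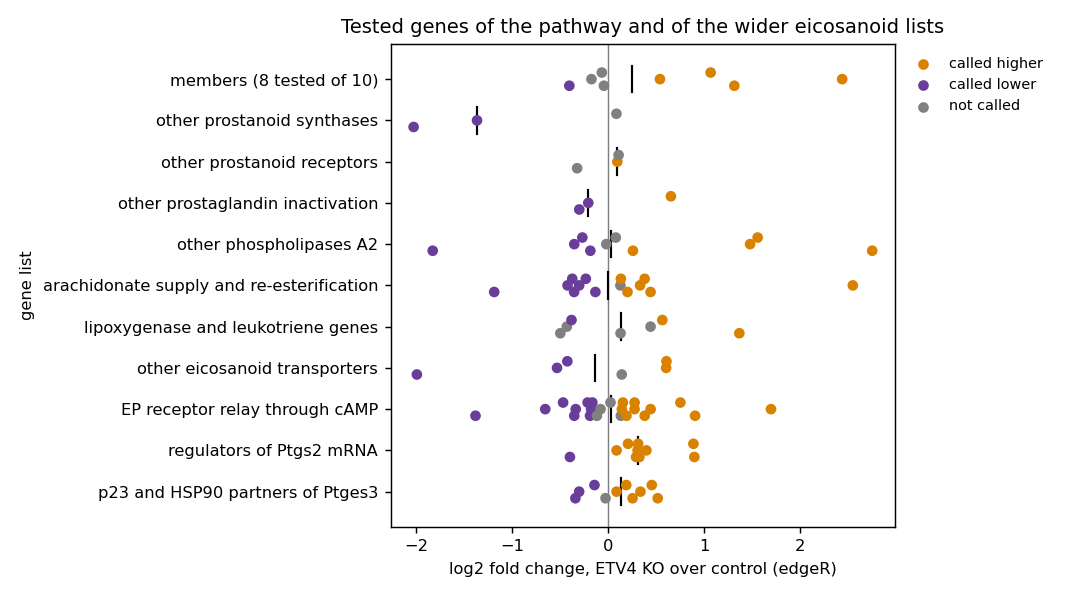
Log2 fold change, ETV4 KO over control (edgeR), of every tested gene of the pathway genes and the 10 wider lists; each point is a gene, coloured by call, and the vertical bar is the list's median. Medians of the wider lists run from -1.37 (3 prostanoid synthases) to 0.31 (10 regulators of Ptgs2 mRNA).

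Genes that relay EP receptor signals through cyclic AMP showed no common direction: of 23 tested, 10 rose and 9 fell, with a median of 0.02. Arrb1, an arrestin that uncouples receptors, rose by 1.70 to 7.12 CPM in ETV4 KO against 2.18 CPM in control. The protein kinase A regulatory subunit Prkar2b rose by 0.75, whereas Prkar1a fell by 0.66, and by 0.19 with the median of its bin on chromosome 11 taken out. The phosphodiesterase Pde4d fell by 1.39, to 22, 10 and 6 counts in ETV4 KO libraries against 33, 30 and 31 in control libraries. Of 10 tested genes for proteins that bind or regulate Ptgs2 mRNA, 9 rose and 1 fell, with a median of 0.31, where 35.0% of all tested genes rose and 36.0% fell. The median absolute change of these 10 was 0.32, against 0.29 for all tested genes. The members do not act alike: Celf2, which binds AU-rich elements of Ptgs2 mRNA, rose by 0.89, the stabilising Elavl1 by 0.09 and the destabilising Zfp36 by 0.31, while the RNA-binding Tia1 fell by 0.40. Rbm3, the cold-inducible RNA-binding protein, rose by 0.90, but had -0.03 with the median of its 10 Mb bin on the X chromosome (0.93) taken out. Khsrp and Zfp36l2 rose by 0.32 and 0.40, with bin medians of 0.32 and 0.44. The other genes of this list that rose lay above their bin medians. Of 10 HSP90 genes and partners of p23, 6 rose and 3 fell, with a median of 0.14; the glucocorticoid receptor gene Nr3c1 rose by 0.51.

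The genes whose profile over the 6 libraries was most like that of Ptgs2, by Euclidean distance of log2 CPM centred on each gene's mean, were Soat1 (0.0363), Areg (0.0816), Itga6 (0.0915), Odc1 (0.112) and Rap1gap2 (0.120), with log2 fold changes of 1.26 to 1.38. For Slco2a1, the gene of the 10 with the largest fall, they were Scd2 (0.0503), Prune1 (0.0553), S1pr2 (0.0570), Cdk19 (0.0621) and Rnf166 (0.0627). With 6 libraries in 2 groups such likeness mainly reflects a similar size of change between the groups.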

How the data were processed

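The values are raw counts of reads by gene symbol in 6 libraries of 4T1 cells, as the authors deposited them; all are whole numbers, and nothing shows a normalization. Per the submitters' processing notes, STAR 2.7.9a, featureCounts, FastQC 0.11.9 and R 4.1.1 were used; the notes name the builds mm10 and hg38 without their roles. Not given in the sources used here are the annotation, the strand setting and the treatment of multi-mapping reads. Columns were matched to samples by library name, and groups were taken from titles.

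Counts were analysed with edgeR 4.0.16 in R 4.3.3: filterByExpr (minimum count 10, minimum total 15), TMM, glmQLFit and glmQLFTest on the group alone, with Benjamini-Hochberg adjustment over 12076 genes and calls made below an adjusted p of 0.05. Every log2 fold change is ETV4 KO over control. Intervals of the fold change use the SE and the t quantile of the fit's degrees of freedom. Alternatives used limma 3.58.1 and DESeq2 1.42.0. Depth was 22355015 to 29042569 counts per library; pairs of libraries within a group had a chi-square of 2.07 to 4.91 per degree of freedom, so no library repeats another. The steps were tested on simulated counts. Positions and exon lengths are from GENCODE M21 (mm10), by symbol; promoters are from RefSeq, and all 10 genes matched.

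The 10 genes, the wider lists and the tests were chosen with earlier results of these data known. Named genes of the wider lists are those called with a log2 change of at least 0.5 and a mean of at least 1 CPM in one group, at most 4 per list by adjusted p, plus Etv4, Etv1, Etv5, synthase and receptor genes with 0 counts and the 5 nearest profiles, leaving out symbols without a function name. Other genes (Ptgs2os2, Ptges3l, Ttc33, Ttll11, Tpr, Prg4, Gm4675, Dzip1, Elavl1, Zfp36, Khsrp, Zfp36l2, Tia1, Lta4h, Ptgr1, Ptgr2, Ptgfrn, Ptger1, Akr1b3, Ptgdr2 and those given with their counts alone) were chosen after their values were seen. The 10 Mb bin alternative enters the median of the other expressed genes of a bin as an offset (for Pla2g4a, Abcc4, Pnpla8, Grk5 and Ppid, whose bins held fewer than 10 such genes, that of the whole chromosome) and leaves out that median's error.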

Additional observations from a re-analysis of the deposited data

How the results depend on the processing

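With the fold change tested against 1.5, 3 of the 10 genes were called (Ptgs1, Ptgs2 and Abcc4, all higher) in place of 5, and 16 genes of the wider lists in place of 73. All 5 called genes kept their direction and call under the other 17 alternatives, and leaving out each library in turn gave 5 to 7 called genes and 69 to 71 in the wider lists. Across the alternatives the log2 fold change ran from 2.27 to 2.49 for Ptgs1, 1.26 to 1.33 for Ptgs2, 0.90 to 1.12 for Abcc4 (0.90 with the median of its chromosome taken out, since its bin held too few genes), 0.37 to 0.61 for Ptges2 and -0.48 to -0.36 for Slco2a1. Ptger4, fitted without a filter, ran from 1.77 to 2.34 and was called in each of 12 fits. With bin medians taken out, 54 genes of the wider lists were called in place of 73, 48 of them with the same call; Ptges3 turned to 0.064 and Rbm3 to -0.032; the bin medians were -0.13 and 0.93. With the replicate block 6 of the 10 genes were called (Ptges3 was added, edgeR adjusted p = 0.0281) and 73 in the wider lists. Whether the replicate numbers pair the libraries is not settled. Deviations of same-numbered libraries correlated at 0.019 to 0.071, and those of differently numbered ones at -0.086 to 0.02. AGGAAG was before 3 of the 10 genes in the nearest 125 bases and before 4 with the 50 bases after the start added. Depth limits Ptger4 and Hpgd; Ptges, with 70 to 89 counts per library, has the widest interval among the 8 tested of the 10 genes.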

Other observations

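Ptgs2os2, a long noncoding RNA gene on the strand opposite to Ptgs2 (chromosome 1, 150159043 to 150164948, mm10), had 0 counts in each ETV4 KO library, against 10, 9 and 8 counts in the control libraries. The 95% Clopper-Pearson interval of the ratio of ETV4 KO to control runs from 0 to 0.138 and covers counting error only. The interval takes no account of the choice of this gene after its values were seen. Ptgs2os2 did not pass the filter on low counts, so it has no test. Ptges3l, a relative of Ptges3 on chromosome 11, had 22, 17 and 25 counts in ETV4 KO libraries and 20, 28 and 34 in control libraries, and the groups overlapped.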
